A study of Homo sapiens with 16 samples.

Results

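Transcripts of the MHC class I antigen presentation pathway were followed by RNA sequencing in 2 human skin-derived lines. The 9 genes were taken by symbol from a table of 26229 listed genes: the heavy chains HLA-B, HLA-C, HLA-E and HLA-F, their light chain B2M, the peptide transporter subunits TAP1 and TAP2, the loading factor TAPBP (tapasin) and the transactivator NLRC5. All 9 passed the filter on low counts (a mean above 10 over the libraries), which left 14673 genes to test. The lines were A431, an epidermoid carcinoma line, and HaCaT, an immortalised keratinocyte line, both grown in DMEM with fetal calf serum. Each line gave 1 library of cells transfected with control siRNA (siCTRL), 3 of cells transfected with siRNA against YAP1 (siYAP), 1 of cells transfected with empty vector (EV) and 3 of cells transfected with a constitutively active YAP1 mutant (YAP5SA), which made 16 libraries in 8 groups. siRNAs were transfected on 2 occasions 24 h apart and RNA was taken 48 h after the second. A single line stands for each cell type, and the labels name 1 control library per arm and line, so the spread between control cultures could not be measured. The labels do not say whether the triplicates were separate cultures, whereas the study's methods name biological triplicates. If they were not, the p values measure technical spread.

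MHC class I molecules carry peptides from proteins made inside the cell to its surface, where cytotoxic T cells read them. The peptides are cut by the proteasome, moved into the endoplasmic reticulum by the TAP1-TAP2 pump, and loaded with the help of tapasin onto a heavy chain paired with B2M. HLA-B and HLA-C are classical heavy chains with many alleles, while HLA-E and HLA-F are less variable forms that also engage receptors of natural killer cells. NLRC5 is recruited to class I promoters by the RFX, NF-Y and CREB/ATF factors, and interferons raise the whole pathway, in part through IRF1 and IRF9.

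The RefSeq table of promoter windows, which run from 250 bases before to 50 after a transcription start on GRCh38.p14, held windows for HLA-B, HLA-C, HLA-F, B2M, TAP1, TAP2 and TAPBP. Those of 6 genes are shown, and the HLA-F window is described without its sequence. They are reference sequence and not the alleles of these lines. Capitals mark matches, on either strand, to the interferon-stimulated response element (GAAA on both sides of any pair of bases), a shorter interferon element GAANNGAAA, and 2 forms of an NF-kB site, the first GGGGATTC followed by any base and CC, the second GGGA followed by any base and TTTCC, where N is any base. Matches that overlap run together.
HLA-B, chr6:31357130-31357429, minus strand: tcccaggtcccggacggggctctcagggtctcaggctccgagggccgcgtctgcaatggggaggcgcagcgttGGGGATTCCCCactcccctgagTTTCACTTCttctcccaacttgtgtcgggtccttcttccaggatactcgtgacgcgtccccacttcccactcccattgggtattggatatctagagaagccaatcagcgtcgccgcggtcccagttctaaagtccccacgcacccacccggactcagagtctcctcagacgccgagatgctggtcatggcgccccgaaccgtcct
HLA-C, chr6:31272043-31272342, minus strand: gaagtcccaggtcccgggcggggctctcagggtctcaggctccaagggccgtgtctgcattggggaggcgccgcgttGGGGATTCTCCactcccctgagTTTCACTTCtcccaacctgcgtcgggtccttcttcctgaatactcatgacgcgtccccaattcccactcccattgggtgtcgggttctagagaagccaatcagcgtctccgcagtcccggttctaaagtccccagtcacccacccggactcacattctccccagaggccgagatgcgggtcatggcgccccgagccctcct
B2M, chr15:44711267-44711566, plus strand: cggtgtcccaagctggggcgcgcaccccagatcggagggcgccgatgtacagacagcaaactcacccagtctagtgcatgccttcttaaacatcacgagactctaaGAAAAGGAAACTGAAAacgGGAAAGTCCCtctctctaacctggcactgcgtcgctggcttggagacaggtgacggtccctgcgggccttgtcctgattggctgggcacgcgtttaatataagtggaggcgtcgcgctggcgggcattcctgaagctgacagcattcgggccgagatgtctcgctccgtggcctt
TAP1, chr6:32853655-32853954, minus strand: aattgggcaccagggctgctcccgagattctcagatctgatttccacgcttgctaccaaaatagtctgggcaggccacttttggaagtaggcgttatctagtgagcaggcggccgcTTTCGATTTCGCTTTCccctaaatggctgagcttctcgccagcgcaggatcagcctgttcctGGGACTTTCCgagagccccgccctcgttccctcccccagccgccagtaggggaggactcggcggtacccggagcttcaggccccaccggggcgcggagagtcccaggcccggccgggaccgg
TAP2, chr6:32838690-32838989, minus strand: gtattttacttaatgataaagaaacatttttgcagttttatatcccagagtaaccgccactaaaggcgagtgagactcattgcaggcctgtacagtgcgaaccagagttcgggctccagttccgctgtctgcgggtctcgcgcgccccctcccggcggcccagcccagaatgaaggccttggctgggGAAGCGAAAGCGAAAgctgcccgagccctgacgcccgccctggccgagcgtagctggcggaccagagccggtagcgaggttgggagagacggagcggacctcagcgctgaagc
TAPBP, chr6:33314029-33314328, minus strand: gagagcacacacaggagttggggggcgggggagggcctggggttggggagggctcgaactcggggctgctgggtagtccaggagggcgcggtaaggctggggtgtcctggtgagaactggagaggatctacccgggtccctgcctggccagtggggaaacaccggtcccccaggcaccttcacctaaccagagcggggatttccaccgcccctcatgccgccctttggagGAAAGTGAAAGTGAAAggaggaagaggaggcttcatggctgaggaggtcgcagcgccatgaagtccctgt
Every one of these 6 windows held an interferon-type match. TAP1 also had a second window, not shown, which held no match to any of the marked forms. In TAPBP it lay next to the start, with matches from positions -20 and -14, and in TAP2 at -63 and -58. In B2M a pair of overlapping matches began at -144 and -138 with an NF-kB match at -125, and TAP1 had a like pair, at -134 and -128 with an NF-kB match at -72. HLA-B and HLA-C carried the shorter interferon element at -155 and -151 and the first NF-kB form at -177 and -173. The HLA-F window held an interferon-stimulated response element at -156 and no NF-kB match of either form. Over all 35116 windows of the table, 3.57% held the response element, 7.66% the shorter element, 0.0769% the first NF-kB form and 0.558% the second. The core GGAATG of a TEAD site, the motif through which YAP is recruited to DNA, was found in 14% of all windows and, among the 7 genes, in that of B2M alone, at -1. A match of letters is a description of the reference and does not show that a factor was bound in these cells.

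The libraries held 18115624 to 46791673 assigned read pairs, of which the 9 genes took between 0.205% and 0.615%. The lowest count of any of them was 112, for NLRC5 in the HaCaT siCTRL library. YAP1 itself, the targeted gene, stood at 94.3 CPM (reads relative to library size, scaled by TMM factors) in A431 siCTRL and at 5.34, 6.9985 and 5.04 in A431 siYAP, and at 254 in HaCaT siCTRL and 23.2, 21.6 and 21.8 in HaCaT siYAP. YAP1 was 124 CPM in A431 EV against 1495, 3245 and 2940 under YAP5SA, and 423 in HaCaT EV against 7549, 22255 and 10069. Every treated library thus lay on the side of its control that its label names, and the fitted change passed the test in all cases but A431 YAP5SA (log2 fold change 4.36, FDR 0.20). The first A431 YAP5SA library stood apart from the other two, with the least YAP1 of the 3. Some results are also given without it, since its spread enters every test. The HaCaT YAP5SA libraries differed among themselves as well, again with the least YAP1 in the first. Keratin and adhesion markers of epithelial cells summed to between 1998 and 5935 CPM in every library, and no library had more than 8 counts of PTPRC, which marks leukocytes. The 6 leukocyte markers summed to between 9.14 and 172 CPM, most of it CD68, which many cell types transcribe. The 5 melanocyte markers summed to between 33.8 and 118 CPM, most of it MITF.

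Set per kilobase of the longest coding transcript of each gene, B2M was the most abundant of the 9 in every group, at 764 CPM per kb in HaCaT siYAP and 2871 in HaCaT EV at the extremes. HLA-B and HLA-E followed in A431, at 471 and 421 CPM per kb under siYAP, ahead of HLA-C at 207. HLA-F, at 46.2, TAPBP, at 42.5, and TAP1, at 35.9 CPM per kb in the same A431 siYAP group, were close to each other and their order was not tested. TAP2 and NLRC5 came last, at 6.91 and 5.54 CPM per kb in A431 siYAP. Of the 75-base words in these transcripts, at most 2.02% (HLA-E) also occurred in any transcript of another listed gene, so most reads of the reference sequence could be placed. The deposited counts of HLA-B, HLA-C, HLA-E, HLA-F, TAP1 and TAPBP were nonetheless fractional in 100% of libraries, which means that some reads were divided among genes, and the levels of the heavy chains are less certain than those of B2M and NLRC5, whose counts were whole in every library.

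**Figure D1:**
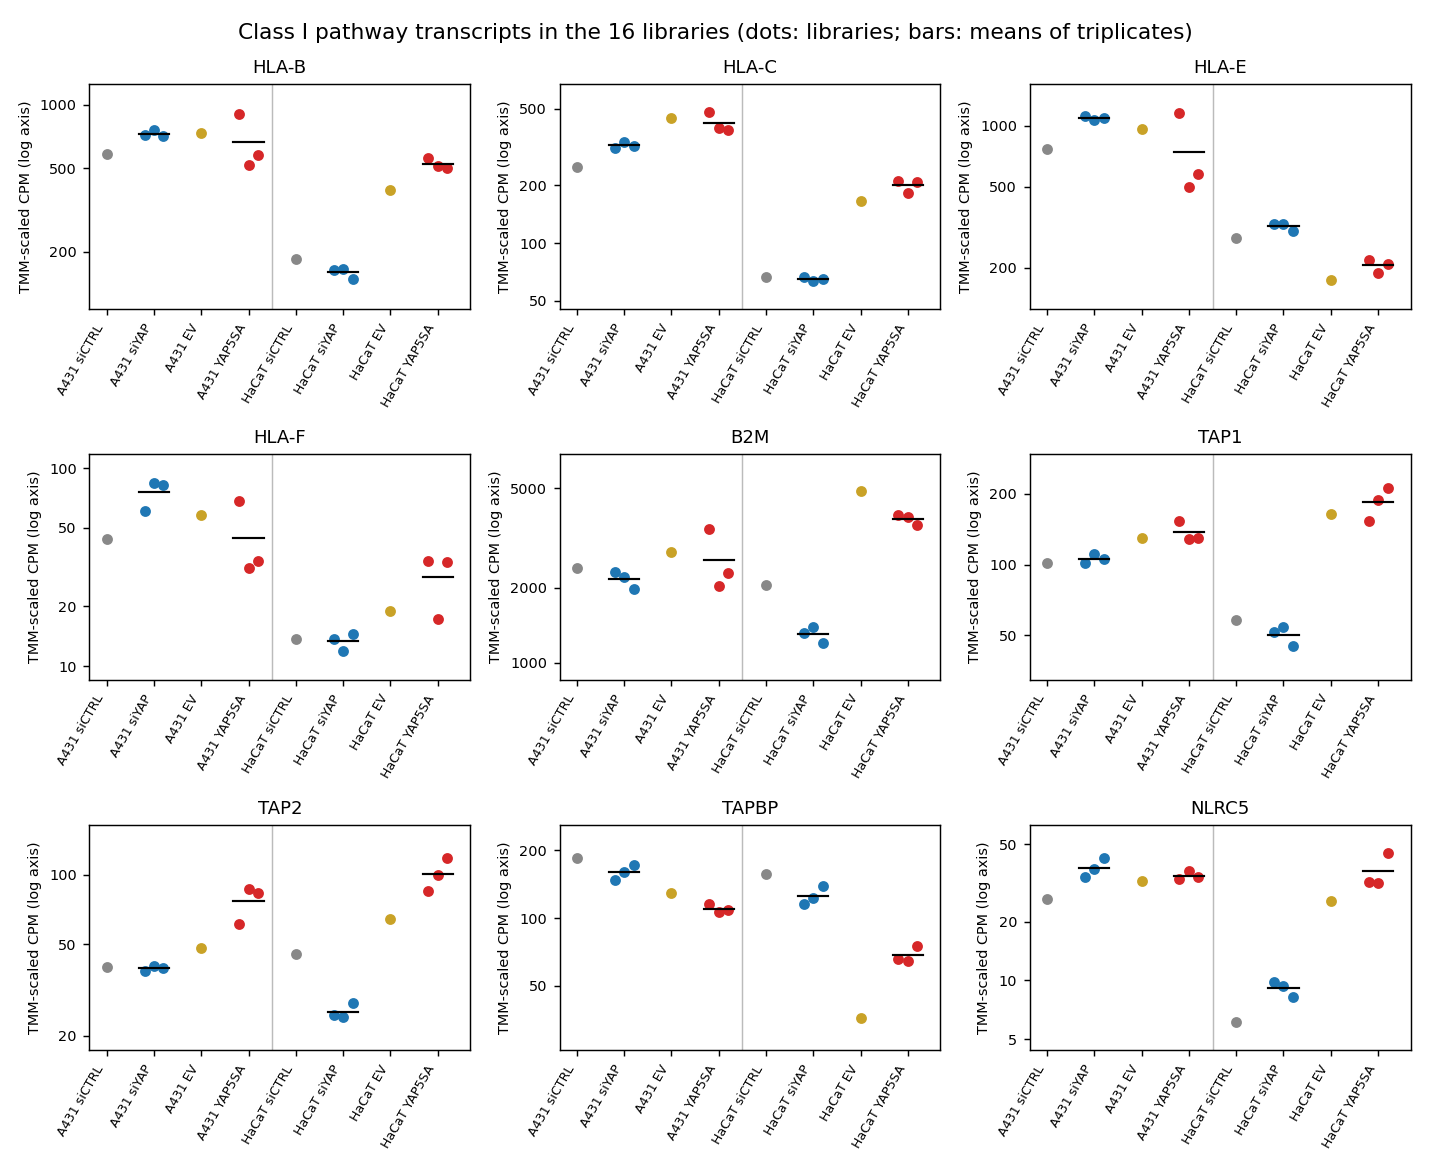
TMM-scaled CPM of the 9 genes on log axes, with a panel for each gene, the 8 groups on the x axis (A431 to the left of the grey line, HaCaT to the right), a dot for each library and a bar for the mean of each triplicate. In HaCaT the EV and YAP5SA dots lie above the siCTRL and siYAP dots for 7 genes and below them for HLA-E and TAPBP, and in A431 the first YAP5SA dot lies above the other two for all 4 heavy chains, B2M and TAP1.

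Under siYAP the calls among the class I genes were about as frequent as among all genes. In A431 cells 0 of the 9 genes passed the test (FDR under 0.05 and logCPM above 1, in the quasi-likelihood test of edgeR), against 5.6% of all genes tested, and 3264 of all genes, HLA-C and NLRC5 among them, had an unadjusted p under 0.05. DESeq2 called 0 of the 9 as well, where it called 9.75% of all genes. In HaCaT cells 1 of 9 passed, against 5.67% of all genes. In RNA from whole cultures, fewer cells of a kind and less RNA per cell cannot be told apart.
The gene that fell was TAP2, a subunit of the peptide pump. TAP2 stood at 45.3 CPM in HaCaT siCTRL and at 24.5, 24.2 and 27.7 in siYAP, and all 3 siYAP libraries lay below the control. The log2 fold change was -0.83 (SE 0.20, FDR 0.025), or 1.78-fold lower. The TAP2 call was lost when either the first or the second HaCaT siYAP library was left out, with log2 fold changes of -0.80 in both cases. In A431 TAP2 read 39.7 CPM in siCTRL and 38.0, 40.3 and 39.5 in siYAP, so the groups overlapped.
B2M was 2056 CPM in HaCaT siCTRL and 1318, 1392 and 1197 in siYAP, all below the control, with a log2 fold change of -0.66 (SE 0.22, FDR 0.11) that did not pass. Without the first A431 YAP5SA library, whose spread all groups share, B2M passed in HaCaT siYAP (FDR 0.013), where 8.02% of all genes did. HLA-F had the highest estimate in A431, at 0.78 (SE 0.43, FDR 0.31), followed by NLRC5, at 0.52 (SE 0.21, FDR 0.18), and HLA-E, at 0.51 (SE 0.33, FDR 0.39). HLA-E stood at 767 CPM in A431 siCTRL and at 1121, 1070 and 1092 in siYAP, and all 3 libraries lay above the control. HLA-F stood at 43.8 CPM in siCTRL and 60.4, 84.1 and 82.1 in siYAP, again all above. In the fit without the first A431 YAP5SA library HLA-E passed in A431 siYAP (0.51, SE 0.13, FDR 0.028), where 8.54% of all genes did. The direction of HLA-B differed between the lines, with siYAP libraries of 718, 755 and 713 CPM above the A431 siCTRL at 584 and libraries of 165, 166 and 149 CPM below the HaCaT siCTRL at 185, but neither passed the test. In all, 8 of 9 genes in A431 and 7 of 9 in HaCaT had their 3 siYAP libraries on 1 side of the control, and so did 72.3% and 69.7% of all genes tested.

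NLRC5 was the one gene of the 9 to pass when the siYAP effect was taken over both lines in the fit of all 16 libraries, where 13% of all genes passed. Without the first A431 YAP5SA library HLA-E (0.35), B2M (-0.40) and TAP2 (-0.42) passed too, against 16.6% of all genes. NLRC5 stood at 26.3 CPM in A431 siCTRL and 33.9, 37.1 and 42.4 in siYAP, and at 6.12 CPM in HaCaT siCTRL and 9.80, 9.33 and 8.26 in siYAP. All 6 siYAP libraries were above the control of their line. The log2 fold change of NLRC5 was 0.55 (SE 0.16, FDR 0.040), with estimates of 0.52 in A431 and 0.58 in HaCaT, and the call was lost in 6 of 12 fits that left out a treated library. The other 8 genes had log2 fold changes between -0.42 (TAP2, FDR 0.065) and 0.37 (HLA-F, FDR 0.46) over both lines. With siCTRL and EV taken as a pair of controls the NLRC5 value turned to -0.22 (FDR 0.58), since NLRC5 was 4.17-fold higher in the HaCaT EV library than in HaCaT siCTRL.

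YAP5SA was then set against EV. In A431 cells 0 of the 9 genes passed, but no gene of the whole table did (0%) in this comparison, while 828 had an unadjusted p under 0.05, TAP2 among them. DESeq2, run as an alternative, also called 0 of the 9, against 0.0204% of all genes. TAP2 stood at 48.0 CPM in A431 EV and 60.9, 86.6 and 82.8 under YAP5SA, all above, with a log2 fold change of 0.68 (SE 0.21, unadjusted p = 0.0065, FDR 0.80). The first YAP5SA library lay far from the other two for several genes. HLA-E was 960 CPM in A431 EV and 1151, 501 and 579 under YAP5SA, and HLA-F was 58.0 CPM in EV and 68.2, 31.4 and 34.1, so the first library lay above the control and the others below it. Without that library HLA-E fell by 0.83 on the log2 scale in A431 (FDR 0.016) and was the 1 gene of the 9 that passed, against 0.592% of all genes in that fit.

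In HaCaT cells 1 of 9 passed, against 13.6% of all genes. TAPBP, the tapasin that bridges the peptide pump and the waiting heavy chain, rose from 36.1 CPM in HaCaT EV to 65.6, 64.1 and 75.4 under YAP5SA (log2 fold change 0.92, SE 0.15, FDR 0.0052). This TAPBP call was kept whichever treated library was left out, with log2 values from 0.84 to 0.97, but the EV library on which it rests held the least TAPBP of all 16 libraries, where HaCaT siCTRL had 156 CPM, and with siCTRL and EV as a pair of controls the value turned to -0.49 (FDR 0.41). TAP2 read 64.2 CPM in HaCaT EV and 85.2, 99.5 and 118 under YAP5SA, all above, with a log2 fold change of 0.65 (SE 0.21) whose FDR of 0.052 missed the threshold. TAP2 passed with RLE size factors, with a stricter count filter, with a replicate block and in DESeq2. B2M was the only one of the 9 with all 3 HaCaT YAP5SA libraries below EV, at 4895 CPM in EV against 3913, 3837 and 3568 (log2 fold change -0.38, SE 0.23, FDR 0.28). In all, 3 of 9 genes in A431 and 7 of 9 in HaCaT had their 3 YAP5SA libraries on 1 side of EV, as did 53.4% and 66% of all genes. Over both lines TAP2 alone passed, at 0.66 (SE 0.15, FDR 0.041), where 2.04% of all genes passed, and this call was lost in 9 of 12 fits that left out a treated library.

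**Figure D2:**
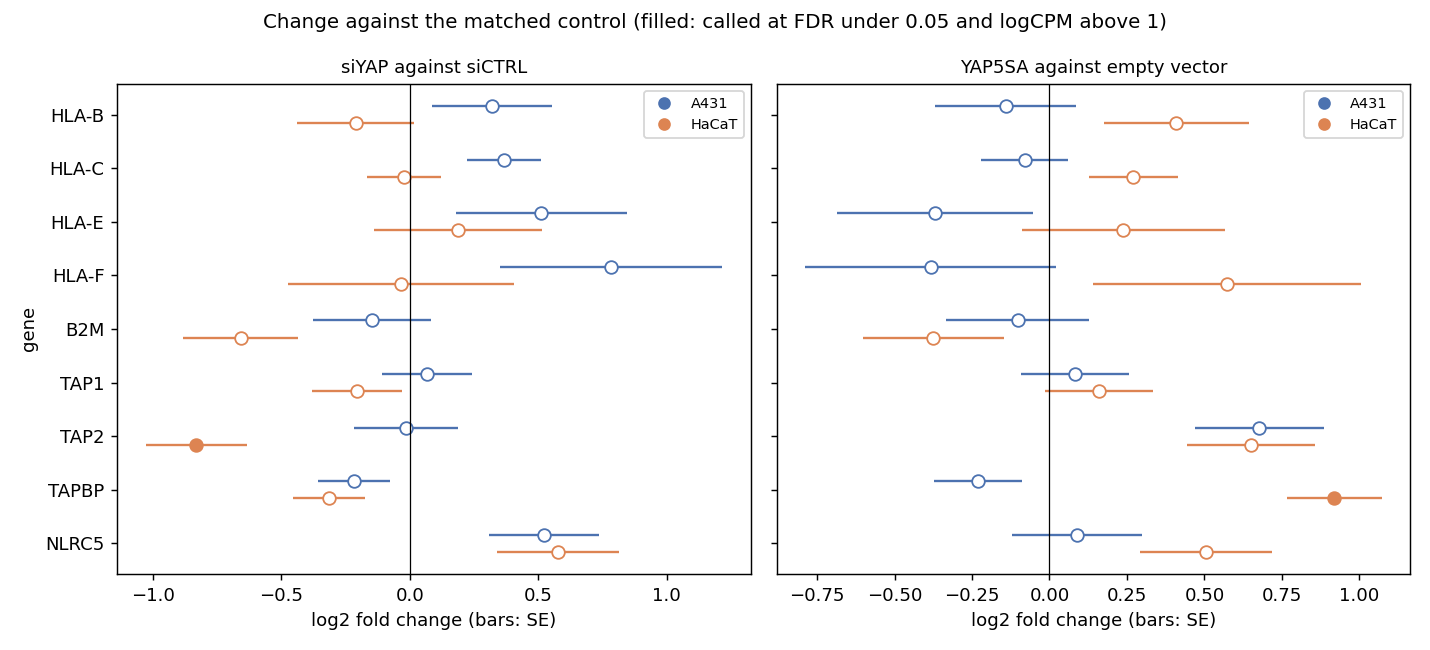
Log2 fold changes of the 9 genes (y axis) against the matched control on the x axis, siYAP against siCTRL on the left and YAP5SA against EV on the right, with SE bars, A431 in blue and HaCaT in orange, filled where the gene was called. The filled dots are TAP2 in HaCaT siYAP, at -0.83, and TAPBP in HaCaT YAP5SA, at 0.92.

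No difference of an effect between the lines passed for the 9 genes in the fit of all 16 libraries. For siYAP 0 of 9 passed against 0.17% of all genes, while TAP2 had an unadjusted p of 0.014 at -0.82 (SE 0.29). DESeq2 also called 0 of 9 for siYAP, against 2% of all genes. For YAP5SA 0 of 9 passed against 0.0886% of all genes, and the highest estimate was that of TAPBP, which was -0.23 in A431 and 0.92 in HaCaT and differed by 1.15 (SE 0.20, FDR 0.052). The TAPBP difference passed in DESeq2 (1.16), with RLE size factors, with the stricter filter and with a replicate block (1.14, FDR 0.043). Without the first A431 YAP5SA library, HLA-B (0.83, FDR 0.026), HLA-E (1.07, FDR 0.014) and TAPBP (1.19, FDR 0.015) passed, against 5.94% of all genes in that fit.

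The widest contrast lay between the arms of the HaCaT experiment. Set against siYAP, the HaCaT YAP5SA libraries called all 9 genes, 7 higher and 2 lower, where 60% of all genes were called, 31.5% higher and 28.5% lower. The median log2 fold change of the 9 genes was 1.61, and that of all genes -0.06. The genes that were higher included the transactivator, the pump, both classical heavy chains, HLA-F and B2M.
NLRC5 was 9.80, 9.33 and 8.26 CPM in HaCaT siYAP and 32.1, 31.5 and 45.0 in YAP5SA, 3.97-fold higher (log2 fold change 1.99, SE 0.15, FDR 1.55e-07). TAP1 was 51.4, 54.2 and 45.1 CPM in siYAP and 153, 188 and 211 in YAP5SA, 3.66-fold higher (1.87, SE 0.13, FDR 4.79e-08). TAP2 went from 25.5 ± 1.92 CPM (SD, n = 3) in siYAP to 101 ± 16.2 (SD, n = 3) in YAP5SA, 3.95-fold higher (1.98, SE 0.15, FDR 1.02e-07). None of the 3 overlapped between the groups. Of all genes 55.1% did not overlap between the 4 vector and 4 siRNA libraries of HaCaT, so at least that share did not overlap here.
HLA-B was 165, 166 and 149 CPM in HaCaT siYAP and 557, 510 and 499 in YAP5SA, 3.26-fold higher (log2 fold change 1.70, SE 0.17, FDR 1.22e-06). HLA-C was 66.9, 63.2 and 65.4 CPM in siYAP and 210, 182 and 207 in YAP5SA, 3.06-fold higher (1.61, SE 0.10, FDR 2.91e-08). B2M was 1302 ± 98.6 CPM (SD, n = 3) in siYAP and 3773 ± 182 (SD, n = 3) in YAP5SA, 2.90-fold higher (1.53, SE 0.17, FDR 3.37e-06). HLA-F went from 13.7, 11.9 and 14.5 CPM to 33.8, 17.3 and 33.4 (1.07, SE 0.30, FDR 0.0065), with the second YAP5SA library near the siYAP level.
HLA-E and TAPBP ran the other way. HLA-E was 328, 328 and 305 CPM in HaCaT siYAP and 219, 190 and 210 in YAP5SA (log2 fold change -0.63, SE 0.23, FDR 0.025), and its call was lost in 4 of 12 fits that left out a treated library. TAPBP was 115, 123 and 139 CPM in siYAP and 65.6, 64.1 and 75.4 in YAP5SA, 1.83-fold lower (-0.88, SE 0.10, FDR 5.91e-06).

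The 2 control libraries of HaCaT differed in the same way as the treated ones. The EV library, without mutant YAP, had 4.17 times the NLRC5 of the siCTRL library (25.5 against 6.12 CPM), 2.84 times the TAP1 (164 against 57.9), 2.38 times the B2M (4895 against 2056), 2.49 times the HLA-C (165 against 66.3) and 2.12 times the HLA-B (393 against 185). HLA-F and TAP2 stood closer, at 1.38 and 1.42 times. HLA-E was 1.61 times higher in HaCaT siCTRL than in EV (281 against 175 CPM) and TAPBP 4.32 times higher (156 against 36.1). For all 9 genes the 4 HaCaT libraries of the vector arm (EV and YAP5SA) did not overlap the 4 of the siRNA arm (siCTRL and siYAP), 7 above and 2 below. Of all genes 55.1% did not overlap between these arms, 26.7% above and 28.4% below. The arm a library belonged to and the YAP5SA or siYAP treatment cannot be told apart in the direct contrast.
When each treatment was first set against its own control, a comparison added after seeing the data, 2 of 9 genes passed in HaCaT, against 9% of all genes. TAP2 was 1.48 higher in YAP5SA than in siYAP on the log2 scale (SE 0.29, FDR 0.0090) and TAPBP 1.24 higher (SE 0.20, FDR 0.0041), the reverse of its direct value. NLRC5 came to -0.07 (95% confidence interval -0.74 to 0.60), HLA-E to 0.05 (-0.93 to 1.04), HLA-C to 0.29 (-0.14 to 0.73), B2M to 0.28 (-0.43 to 0.99) and TAP1 to 0.37 (-0.17 to 0.90). HLA-B and HLA-F came to 0.62 (-0.08 to 1.32) and 0.61 (-0.71 to 1.92). Each of these values takes in 2 single control libraries.

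In A431 cells 6 of the 9 genes had the same sign as in HaCaT, whereas HLA-B (-0.13), HLA-F (-0.76) and NLRC5 (-0.14) had log2 fold changes of the opposite sign to HaCaT, none of which passed. The median log2 fold change of the 9 genes was -0.13. Directly, 4 of 9 genes passed between YAP5SA and siYAP, 3 higher and 1 lower, against 34.6% of all genes, 20% higher and 14.6% lower. TAP2 was 38.0, 40.3 and 39.5 CPM in siYAP and 60.9, 86.6 and 82.8 in YAP5SA (log2 fold change 0.97, SE 0.14, FDR 0.00024). HLA-C was 314, 334 and 318 CPM in siYAP and 482, 399 and 386 in YAP5SA (0.39, SE 0.10, FDR 0.0083), and TAP1 101, 111 and 106 against 153, 128 and 130 CPM (0.37, SE 0.12, FDR 0.031). TAPBP was 148, 159 and 172 CPM in siYAP and 116, 106 and 108 in YAP5SA (-0.54, SE 0.10, FDR 0.0013). For these 4 genes the 4 vector libraries did not overlap the 4 siRNA libraries, while the other 5 overlapped. Over all genes 29% did not overlap, 15.2% above and 13.9% below.
The TAP1 call of A431 was lost in 5 of 12 fits that left out a treated library. Without the first YAP5SA library, HLA-B (-0.41), HLA-E (-1.02) and HLA-F (-1.202) passed as lower in A431 YAP5SA than in siYAP on the log2 scale. In that fit 37.6% of all genes passed, and TAP1 lost its call (0.28, FDR 0.095). Set against their own controls, 0 of the 9 A431 genes passed, where 1.53% of all genes did. TAP1 then read 0.01, TAPBP -0.01, TAP2 0.69 (SE 0.29, FDR 0.20), and HLA-C turned to -0.45 (SE 0.20, FDR 0.23), since the A431 EV library held 446 CPM of HLA-C and siCTRL 250.

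**Figure D3:**
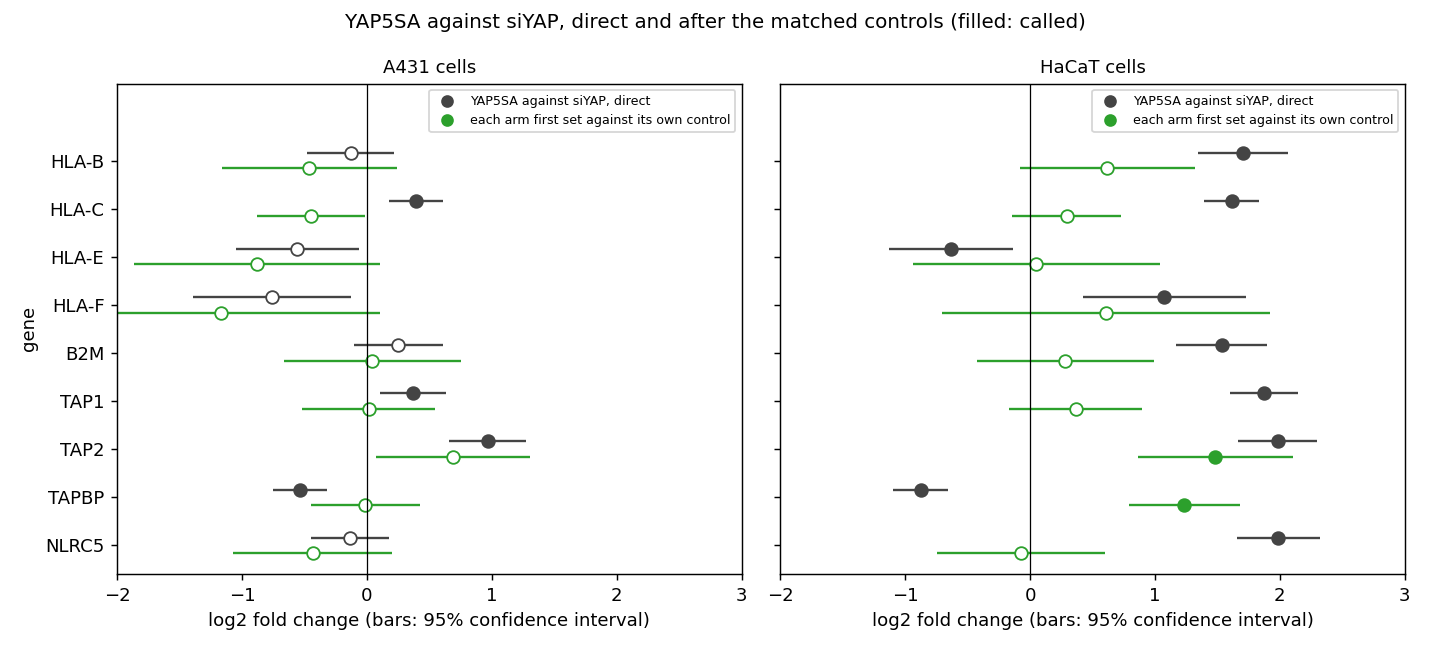
Log2 fold changes of YAP5SA against siYAP on the x axis for the 9 genes, A431 on the left and HaCaT on the right, with 95% confidence intervals; dark dots are the direct contrast and green dots the contrast after each arm was set against its own control, filled where called. In HaCaT all 9 dark dots are filled, whereas the green dots are filled for TAP2, at 1.48, and TAPBP, at 1.24.

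The contrast of YAP5SA with siYAP was larger in HaCaT than in A431 for 7 of 9 genes, a test added after seeing the data, where 40.2% of all genes passed, 21.3% higher and 18.9% lower. NLRC5 had the largest difference, 2.12 on the log2 scale (SE 0.21, FDR 7.42e-06), from -0.14 in A431 to 1.99 in HaCaT. HLA-E (-0.08, SE 0.32) and TAPBP (-0.34, SE 0.14, FDR 0.073) did not pass. This difference too holds the arms of both lines and cannot be told apart from them.

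Genes that act before and around the 9 were counted from hand-written lists, to be read against the 60% of all genes called in HaCaT and the 34.6% called in A431 in the direct contrast of YAP5SA with siYAP. A list of 7 genes held immunoproteasome subunits, the proteasome assembly factor POMP and the PA28 caps. Of these, 5 were higher and 0 lower in HaCaT YAP5SA than in siYAP, with a median log2 fold change of 1.36. PSMB9 (1.98, SE 0.16), POMP (1.86, SE 0.13), PSME2 (1.82, SE 0.10) and PSME3 (1.36, SE 0.16) led them. PSMB9 stood at 22.3 CPM in HaCaT siCTRL and 65.1 in EV, so it differed between the controls too. In A431 4 of these 7 were higher, with PSME2 at 0.86 and PSMB9 at 0.70. The 3 constitutive catalytic subunits, PSMB5, PSMB6 and PSMB7, were all higher as well, by 1.10, 1.96 and 1.57 in HaCaT and by 0.36, 1.08 and 0.94 in A431 on the log2 scale.
Among 16 tested genes from interferon receptors to IRF1, 7 were higher and 3 lower in HaCaT YAP5SA than in siYAP. IRF9, a subunit of the complex that binds interferon-stimulated response elements, was 38.1, 43.0 and 32.2 CPM in HaCaT siYAP and 101, 111 and 117 in YAP5SA (log2 fold change 1.54, SE 0.11), and it was 24.5 CPM in siCTRL and 125 in EV. The IRF9 libraries of the vector arm all lay above those of the siRNA arm, as for NLRC5, TAP1 and HLA-C in HaCaT. SOCS3 was higher by 1.28 (SE 0.23), and the receptor chain IFNAR1 was lower by a log2 value of -1.11 (SE 0.09). In A431 5 genes of the list were higher and 1 lower, with IRF9 at 0.69 (SE 0.11). The part of these genes in the class I values was not tested.
Of 10 loading and quality control genes of the endoplasmic reticulum, 5 were higher and 1 lower in HaCaT, the same share as among all genes, with HSPA5 (1.56), ERAP2 (1.22), which trims peptides, PDIA3 (1.12) and BCAP31 (0.77) leading, and 2 were higher and 1 lower in A431. The NF-kB list had 4 higher and 3 lower of 9 in HaCaT, among them TNFAIP3 (4.03), REL (-1.99), RELB (1.97) and NFKB2 (1.43), and 1 higher and 1 lower in A431. Of the 8 partners that bring NLRC5 to promoters, 1 was higher (NFYB, 0.67) and 1 lower (RFX5, -0.59) in HaCaT, and 2 were higher in A431. Among 11 tested class I-like molecules and ligands, 5 were higher and 3 lower in HaCaT, led by FCGRT (-2.92), ULBP2 (1.78), MICB (1.62) and RAET1G (-1.30), and 3 were higher and 2 lower in A431, where MICB read -1.43.
MHC class II transcripts were scarce. Of the 10 genes of that list 5 were tested, HLA-DRA did not exceed 4.48 CPM in any library, and the one called gene in HaCaT was the protease CTSS (-0.60). The fibroblast marker sum moved with the arms of HaCaT: the 6 markers summed to between 21.5 and 27.9 CPM in the siRNA libraries and to between 0.605 and 1.90 in the vector libraries, in A431 to between 10.1 and 14.5 and between 2.45 and 5.42. DCN had no counts in 3 of the 4 HaCaT vector libraries and 3 in the other, against 208 to 430 in the siRNA libraries. KRT5 was higher in HaCaT YAP5SA than in siYAP by 1.87 on the log2 scale, and 4 epithelial markers were higher and 2 lower. Of 3 tested leukocyte markers CD68 was higher by 1.35 in HaCaT, while CD14 (-0.70) and ITGAX (-0.59) did not pass. MITF was lower by a log2 value of -1.198. The part of these shifts in the class I values was not tested.

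**Figure D4:**
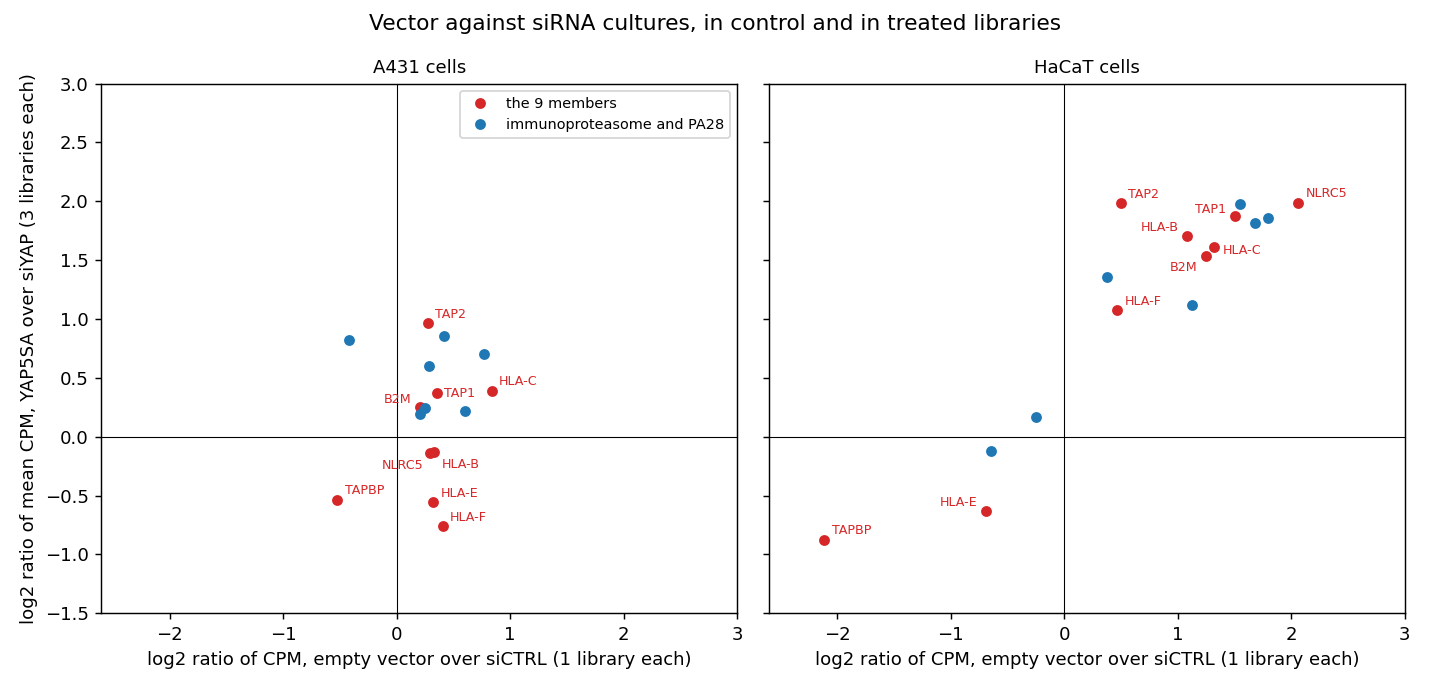
Log2 ratios of vector over siRNA cultures for the 9 genes (red) and the immunoproteasome list (blue), for genes above 1 CPM in both controls, with EV over siCTRL (1 library each) on the x axis and YAP5SA over siYAP (3 libraries each) on the y axis. In HaCaT (right) 7 red dots lie above 0 on both axes and HLA-E and TAPBP below 0 on both, while in A431 (left) HLA-B, HLA-E, HLA-F and NLRC5 lie above 0 on the x axis and below it on the y axis.

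Against the matched controls the lists are to be read against 5.6% and 5.67% of all genes called for siYAP in A431 and HaCaT, and 0% and 13.6% for YAP5SA. In HaCaT siYAP, IRF1, a factor that binds interferon elements, fell from 94.8 CPM to 47.9, 33.9 and 42.9 (log2 fold change -1.19, SE 0.23, FDR 0.010), IFNGR1 fell (-0.69) and IRF9 rose (0.62). PSME2 was the 1 gene of the immunoproteasome and PA28 list called in HaCaT siYAP (-0.74). CALR was the 1 loading gene (0.60), RFX5 the 1 NLRC5 partner (0.69) and HFE the 1 class I-like gene (-1.03), with 0 called in the NF-kB and constitutive lists. In A431 siYAP the calls were MICB (1.205), a stress ligand of natural killer cells, CREB1 (-0.54) and IFNAR1 (-0.54), with 0 in the immunoproteasome, constitutive, loading, NF-kB and class II lists.
In HaCaT YAP5SA against EV, the NF-kB subunits RELA (1.10) and NFKB2 (0.98) rose, RFXANK rose (0.83) and CREB1 fell (-0.59). JAK2 (-0.87), IFNGR1 (-0.60) and IFNAR1 (-0.59) fell, PSME2 fell (-0.60), MICB rose (1.01) and HFE fell (-0.67). The loading, constitutive and class II lists had 0 calls there, and in A431 YAP5SA against EV all lists had 0.

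HaCaT cells held less of most class I transcripts than A431 cells. Over the 4 conditions, each given equal weight, 7 of 9 genes were lower in HaCaT and 0 higher, against 60.6% of all genes called, 33.1% lower and 27.5% higher. The heavy chains differed most. Reads were matched to reference gene models and not to the alleles of each line, and the part of this in the heavy chain differences was not tested. HLA-E was 3.68-fold lower (log2 fold change -1.88, SE 0.17, FDR 4.13e-07), HLA-C 3.21-fold lower (-1.68, SE 0.07, FDR 4.61e-10), HLA-F 3.05-fold lower (-1.61, SE 0.22, FDR 1.88e-05) and HLA-B 2.42-fold lower (-1.27, SE 0.12, FDR 5.03e-07). NLRC5 was lower by a log2 value of -1.10 (SE 0.11), TAPBP -0.78 (SE 0.07) and TAP1 -0.28 (SE 0.09, FDR 0.011). B2M (0.10, SE 0.12) and TAP2 (0.09, SE 0.10) did not pass.
The average hid a dependence on the arm. In siYAP libraries alone all 9 genes were lower in HaCaT than in A431, where 58.6% of all genes were called in either direction, B2M by a log2 value of -0.73 (FDR 0.0015), TAP1 -1.08 (FDR 5.04e-06), TAP2 -0.62 (FDR 0.0018) and NLRC5 -2.05 (FDR 9.39e-08). In YAP5SA libraries alone, where 50.2% of all genes were called, B2M (0.55, FDR 0.012), TAP1 (0.42, FDR 0.0094) and TAP2 (0.39, FDR 0.030) were higher in HaCaT, NLRC5 did not differ beyond its error (0.08, SE 0.15), and HLA-C (-1.08), HLA-E (-1.85) and TAPBP (-0.69) were lower. HLA-B (-0.35, FDR 0.080) and HLA-F (-0.66, FDR 0.071) did not pass in YAP5SA libraries. For HLA-E the line difference was -1.77 in siYAP libraries and -1.85 in YAP5SA libraries.

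**Figure D5:**
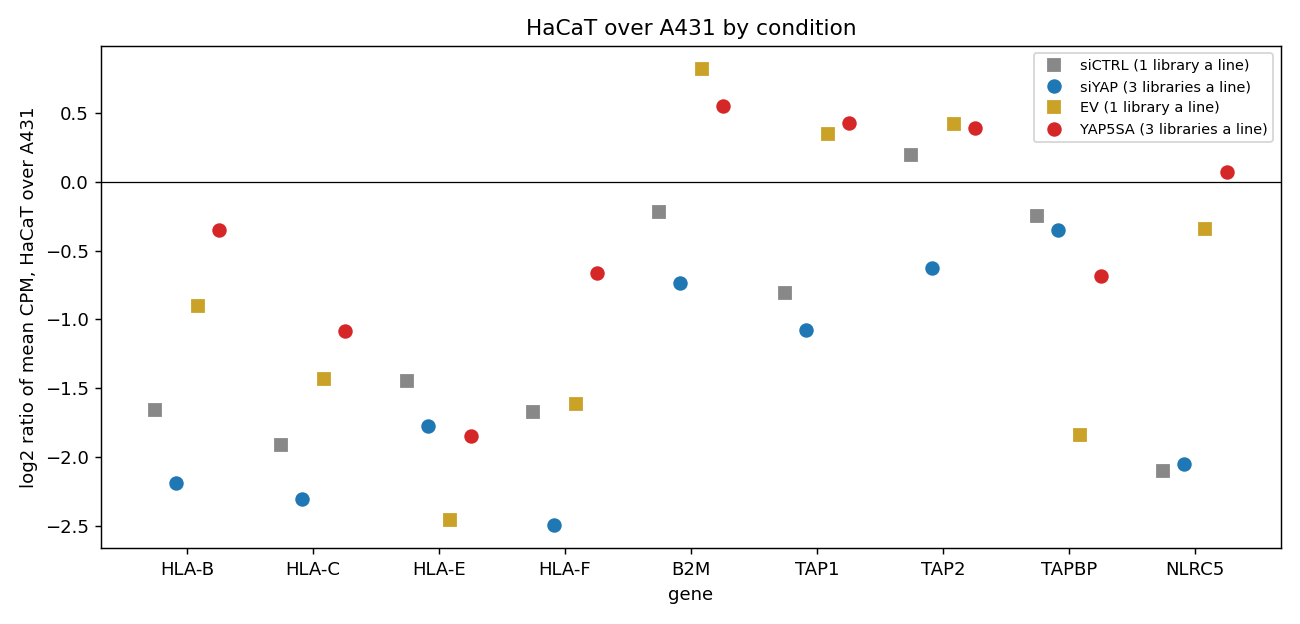
Log2 ratio of mean CPM in HaCaT over A431 (y axis) for each of the 9 genes (x axis) in each condition, squares for single control libraries and circles for triplicates. B2M and TAP1 lie below 0 in the siRNA conditions and above 0 in the vector conditions, and HLA-C and HLA-E lie below 0 in all 4.

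Within HaCaT 7 of the 9 genes were positively correlated with each other across the 8 libraries and HLA-E and TAPBP ran against them, as a description of libraries that fall into the 2 arms. Pearson r between TAP1 and HLA-C was 0.979, between TAP1 and HLA-B 0.977, and between TAP1 and NLRC5 0.961, while TAP1 had r = -0.935 with HLA-E and -0.837 with TAPBP. In A431 TAP1 and HLA-C had r = 0.928 over 8 libraries, but TAP1 and HLA-B had 0.247 and TAP1 and NLRC5 0.0197, whereas HLA-B and HLA-E had 0.906. Over all 16 libraries, after centring each line on its mean, the genes most like TAP1 among 12222 were IFIT3 (r = 0.989), DDX24 (0.988), MASTL (0.987), ZNF695 (0.987) and TRIM21 (0.986). Those most like NLRC5 were SCARB1 (0.979), LOXL2 (0.977), SF3B2 (0.976), GOLM1 (0.974) and SLC15A3 (0.973), and those most like HLA-B were HAS3 (0.971), MRPL49 (0.964), MRPL14 (0.963) and PLEK2 (0.963). All of these libraries share the split between arms, which the correlations carry.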

How the data were processed

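The authors deposited 1 table of RSEM estimated counts of read pairs per gene, from total RNA read as pairs trimmed to 75 bases and matched to RefSeq gene models. The submitters' processing notes name RSEM 1.2.11, edgeR and the build hg19; the methods give another RSEM version. The counts were neither scaled nor filtered, and all 16 columns were used. Strandedness is not given in the sources used here. The deposited values, rounded to whole numbers, were fitted with edgeR 4.0.16 and limma 3.58.1 under R 4.3.3. Genes with a mean above 10 counts were kept, TMM factors ranged from 0.914 to 1.07, and the quasi-likelihood test was applied to 1 model of 8 groups with a prior count of 0.125, 8 residual degrees of freedom and a biological coefficient of variation of 0.174. A lone control was assumed to vary like the triplicates. The FDR is the Benjamini-Hochberg adjusted p over the 14673 genes, and calls needed both FDR < 0.05 and logCPM > 1, the cut-offs of the study. The SE is the log2 fold change over the square root of F. Same-numbered YAP5SA libraries of the 2 lines deviated together from their group means (Pearson r 0.273, 0.129 and 0.102), a hint of pairing from the data and not from the labels. No other pair of groups had r above 0.1 for all 3 numbers, though some were weakly positive for all 3. Replicates of a group differed by more than sampling noise (chi-square per degree of freedom 6.75 to 143).

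The 9 genes, the gene lists and the tests were chosen with earlier results of these data known. The text names the 9 genes, YAP1, at most 4 called genes of a list by largest change, and the 5 genes most correlated with NLRC5, HLA-B and TAP1. DCN, PSMB9 in single libraries and PTPRC were named for their levels after these were seen. The epithelial, fibroblast, leukocyte and melanocyte lists checked the lines. Some items are not reported here. Promoter windows came from RefSeq (GRCh38.p14) and transcript lengths from GENCODE v29, neither on the build of the files, and files and tables were joined by symbol. Figures were drawn in Python 3.11.15 with matplotlib 3.10.9. Alternatives were DESeq2 1.42.0, RLE size factors, other count filters, FDR alone, each line alone, a pair of controls, a replicate block, each treated library left out and, added after seeing the data, each arm against its own control, 1 arm at a time for the lines, and the line difference of YAP5SA against siYAP.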

Additional observations from a re-analysis of the deposited data

Results flagged for a closer look

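The contrast of YAP5SA with siYAP differed between the lines in a test of the difference itself for 7 of the 9 genes (edgeR quasi-likelihood test, HaCaT minus A431, log2 scale). The differences were 2.12 for NLRC5, 1.84 for HLA-B, 1.84 for HLA-F, 1.504 for TAP1, 1.28 for B2M, 1.22 for HLA-C and 1.02 for TAP2. The test was added after seeing the data, 40.2% of all genes passed it, and the vector and siRNA arms cannot be told apart from the treatments in it. Groups of 1 or 3 libraries were too small for a check of single outlying libraries.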

How the results depend on the processing

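Each control is 1 library, so no comparison with siCTRL or EV has a measure of control spread, and calls near the threshold moved with small changes of the fit. Of the values of single genes under all alternatives, 2006 kept their side of the threshold without a called value changing sign, 51 gained a call, 38 lost one and 11 changed sign with a call in at least 1 of the fits; among 1448 uncalled values, 37 changed sign. Numbers of the 9 genes called that moved by over 1.5 times were as follows, with the share of all genes called in brackets. For YAP5SA against EV in HaCaT the main fit called 1 (13.6%). RLE size factors (13.5%), the stricter filter (17.4%), the replicate block (15.2%) and DESeq2 (18.9%) each gave 2. For the line difference of the YAP5SA effect (0 called, 0.0886%) each of these gave 1 (0.736%, 1.86%, 0.143% and 6.43%). For siYAP over both lines (1 called, 13%), no filter gave 0 (7.35%) and a pair of controls 3 (20%). The replicate block (14%) and DESeq2 (16.9%) gave 2 there. For siYAP in HaCaT (1 called, 5.67%), the line fitted alone gave 0 (2.41%) and a pair of controls 4 (20%). For YAP5SA over both lines (1 called, 2.04%), DESeq2 gave 2 (7.24%). With each arm against its own control, YAP5SA against siYAP gave 0 in A431 (1.53%) and 2 in HaCaT (9%).

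Signs turned with a pair of controls for NLRC5 under siYAP over both lines (-0.22) and TAPBP under YAP5SA in HaCaT (-0.49), and with each arm against its own control for HLA-C in A431 (-0.45) and HLA-E (0.0517), TAPBP (1.24) and NLRC5 (-0.0719) in HaCaT. The line difference turned for B2M (-0.73) and TAP2 (-0.62) in siYAP libraries alone and for TAP1 (0.42) and NLRC5 (0.075) in YAP5SA libraries alone. The line difference of YAP5SA against siYAP for HLA-E turned to 0.39 without the first A431 YAP5SA library, and was -0.2946 without the second, the ends of its range. These follow from the libraries each alternative uses, and the cause of the other shifts was not tested.

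Leaving out 1 treated library at a time, the number called ranged from 0 to 1 for siYAP in A431, 0 to 2 for siYAP in HaCaT, 0 to 4 for siYAP over both lines, 0 to 1 for YAP5SA against EV in A431, 1 to 3 in HaCaT, 0 to 2 over both lines, 0 to 3 for the line difference of the YAP5SA effect, 3 to 6 and 8 to 9 for YAP5SA against siYAP in A431 and HaCaT, and 7 to 8 for its line difference. The highest numbers for siYAP and for YAP5SA against EV came without the first A431 YAP5SA library. The shares of all genes called moved in that fit too. They were 8.54%, 8.02% and 16.6% for siYAP in A431, in HaCaT and over both lines. For YAP5SA against EV they were 0.592%, 17.6% and 8.3% in the same order.

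Deviations of same-numbered libraries correlated between -0.07 and 0.27 over all pairs of groups, and above 0.1 for all 3 numbers between the YAP5SA groups of the lines only. The replicate block gained the calls of TAP2 for siYAP over both lines and for YAP5SA against EV in HaCaT, of TAPBP for the line difference of the YAP5SA effect, of HLA-E (-0.62) and HLA-F (-0.84) for YAP5SA against siYAP in A431 and of TAPBP (-0.34) for its line difference, and lost none.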
